A study of Zea mays with 64 samples.

Results

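New germinal Mu insertions that lie near the ends of the maize chromosomes were described, 475 of 764 new germinal insertions in all. An insertion counted as new and germinal when its row of the count table reached 1000 or more CPM (the count per 1000000 counts of its library) in both leaf and endosperm of exactly 1 plant and had under 10 counts in each of the 4 father libraries. The start and end coordinates had to be 8 bp apart on chromosomes 1 to 10. Near an end means a start within the first 20% or the last 20% of the chromosome, whose length was taken as its highest coordinate in the table. The levels in leaf and endosperm, the father counts and the position are therefore the values the insertions were chosen by. Positions or levels of the insertions taken alone are given as descriptions, with no p-value quoted. The rule kept 0.0728% of the 652089 rows near the ends and 0.0658% of the 438927 interior rows, which is 0.07% of 1091016 rows on the chromosomes with coordinates 8 bp apart.

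The study mapped Mu insertions in leaf and endosperm of 30 kernels of the maize inbred W22. All kernels came from pollen of Mu-active W22 fathers placed on Mu-inactive W22 ears, so every plant had a Mu-inactive mother, and the progeny crosses are labelled as made with bulk pollen. Family NE71 had 8 plants (father ND66-2), NE72 had 7 (father ND67-51), NE73 had 7 (father ND67-40) and NE74 had 8 (father ND67-35), and each father was itself Mu-active, from a Mu-inactive ear and Mu-active pollen, and gave 1 endosperm library. Endosperm came from a chip of the kernel, and leaf came from the seedling of that kernel 10 to 13 days after sowing. A column kit was used for leaf DNA and CTAB extraction for endosperm DNA, so tissue and extraction cannot be told apart. Each family had 1 father, so a difference between families is a difference between the progeny of single fathers.

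Mu elements are DNA transposons of maize whose movement is driven by the transposase of the autonomous element MuDR, and that duplicate 9 bp of the target on insertion. The coordinates 8 bp apart, ends included, span those 9 bp. Mu elements are known for inserting in and near genes, in particular near transcription start sites, and maize genes are denser in the distal parts of the chromosome arms than around the centromeres. In flowering plants the sperm cells of a pollen grain fertilise the egg, which gives the embryo and the leaf, and the central cell, which gives the triploid endosperm. An insertion made in the father's germ line before these sperm cells separate is therefore found in both tissues of the kernel.

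Leaf libraries held 25037 to 687094 counts, progeny endosperm libraries 5457 to 105320 and father libraries 273277 to 610687. The level of 1000 CPM therefore corresponded to as few as 5.46 counts in the shallowest endosperm library, and 2 of the 475 near-end insertions rested on fewer than 10 endosperm counts. The lowest share that 3 counts could show lay between 4.37 and 119.8 CPM in leaf and between 28.5 and 549.8 CPM in progeny endosperm. Neither these floors nor the intervals below go beyond counting error, because no molecular identifiers are stated and copies made by PCR are not separate molecules. Earlier work on these data found insertions of NE71 in the endosperm library of plant 7 of NE74. Without that plant, 458 near-end insertions were left. At the main settings, each test given below, other than the exact tests for pairs of families, kept its direction and its side of the threshold. The exact tests for pairs of families were not repeated without that plant.

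The first question was how far new insertions gather towards the chromosome ends. The outer 20% at both ends together make up 40% of the chromosome length and held 64.4% ± 8.44 of a plant's new germinal insertions (SD, n = 30 plants). The lowest plant had 50%, the median plant 65.0% and the highest 83.3%, so all 30 plants lay above 40%. Counted over the insertions of all plants instead of as a mean of plant shares, 475 of 764, or 62.2%, lay near ends. Of all 1091016 rows on the chromosomes, counted in the same way, 59.8% lay near ends. Most of the excess over 40% is therefore common to the mapped sites. Pooled over plants, near-end chromosome held 5.60 new insertions per 10 Mb and the interior 2.27, a ratio of 2.47. The p-values called adjusted here, except those for pairs of families, are Benjamini-Hochberg values over 11 permutation tests, of which those on position or level alone are not quoted.

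The share was then set beside that of other insertions mapped by the same assay. Leaf-only private insertions had 10 or more counts in 1 leaf library and no count in the other 63 libraries, and there were 7920 of them. New germinal insertions lay near ends in 64.4% ± 8.44 of cases per plant, against 61.8% ± 6.12 of leaf-only insertions (SD, n = 30 each). The paired difference of 2.58 ± 10.3 percentage points was positive in 16 plants and negative in 14 and did not pass the test (sign-flip permutation, adjusted p = 0.195). Shares of single plants rested on as few as 3 new insertions (plant 8 of NE73) and 4 leaf-only insertions (plant 9 of NE73). Of 17 alternative settings, only that with leaf-only insertions of 3 or more counts passed, at 3.77 percentage points (sign-flip permutation, adjusted p = 0.0343). Of the insertions that reached 1000 CPM in a father and in both tissues of at least 1 of its progeny, leaving out those carried in all 4 families, 44 of 62 lay near ends in NE72, 33 of 63 in NE74, 13 of 25 in NE71 and 22 of 48 in NE73.

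The outermost 10% at both ends held 10.5 ± 6.44 new insertions per plant and the next 10% inwards held 5.37 ± 2.92 (SD, n = 30). The difference of 5.10 ± 4.89 was positive in 24 plants and negative in 4. In all, the outermost 10% held 314 of the 475, or 66.1%, beside 61.3% of the near-end leaf-only insertions and 60.4% of all near-end rows. In steps of 5% of chromosome length, the first step held 79 insertions and the following ones 40, 34 and 27. At the other end the last step held 123 insertions, and the steps before it held 72, 47 and 53. The step with the fewest insertions, between 40% and 45% of the length, held 11.

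**Figure D1:**
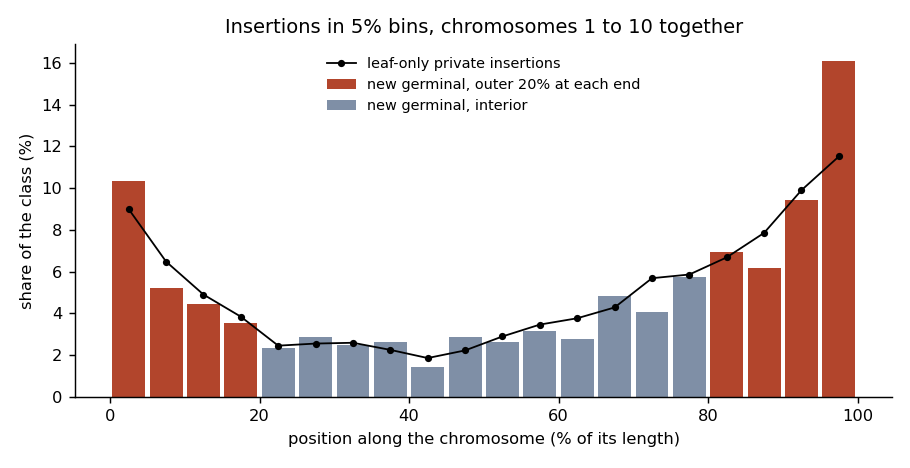
Share of each class in 5% steps of chromosome length, with chromosomes 1 to 10 laid over each other. Bars are the 764 new germinal insertions, 475 near ends and 289 interior, and the line is the 7920 leaf-only private insertions. The last 5% held 16.1% of the new germinal and 11.5% of the leaf-only insertions, and the first 5% held 10.3% and 8.99%.

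The chromosome start and the chromosome end, as the coordinates run, were then set side by side. The first 20% held 6.00 ± 3.68 insertions per plant and the last 20% held 9.83 ± 5.88 (SD, n = 30). The difference of -3.83 ± 4.51 was negative in 22 plants and positive in 5. In all, 180 insertions lay near chromosome starts and 295, or 62.1%, near chromosome ends. The last 20% also held 59.8% of the near-end leaf-only insertions and 59.9% of all near-end rows, so the lean was close to that of the mapped sites at large. The median distance to the nearer tip was 12.5 Mb at chromosome starts and 13.8 Mb at chromosome ends, with 112 of the 475 within 5 Mb of a tip and 13 within 1 Mb.

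Every chromosome carried near-end insertions, at densities between 3.94 and 7.47 per 10 Mb of near-end sequence. Chromosome 2 had the most, 73 insertions from 23 plants, of which 36 lay at its start and 37 at its end. Chromosome 3 was the sparsest per length, with 38 near-end insertions in 96.5 Mb. The lean towards the end coordinate was widest on chromosome 6 (6 at the start, 29 at the end) and chromosome 7 (9 and 33). On chromosomes 1, 2, 3 and 5 the counts at the start and the end were closer, with 25 and 30, 36 and 37, 17 and 21, and 28 and 34.

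The contrast with the interior also ran unevenly over the chromosomes. On chromosome 10, 38 of 46 new insertions lay near ends, a density 7.12 times that of its interior, and on chromosome 2 the ratio was 5.48. On chromosome 3 it was 1.14, with 38 of 88 new insertions near ends. Leaf-only private insertions lay near ends in 64.1% of cases on chromosome 10, 71.0% on chromosome 2 and 54.9% on chromosome 3. These per-chromosome values are counts over all plants, and differences between chromosomes were not tested.

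**Figure D2:**
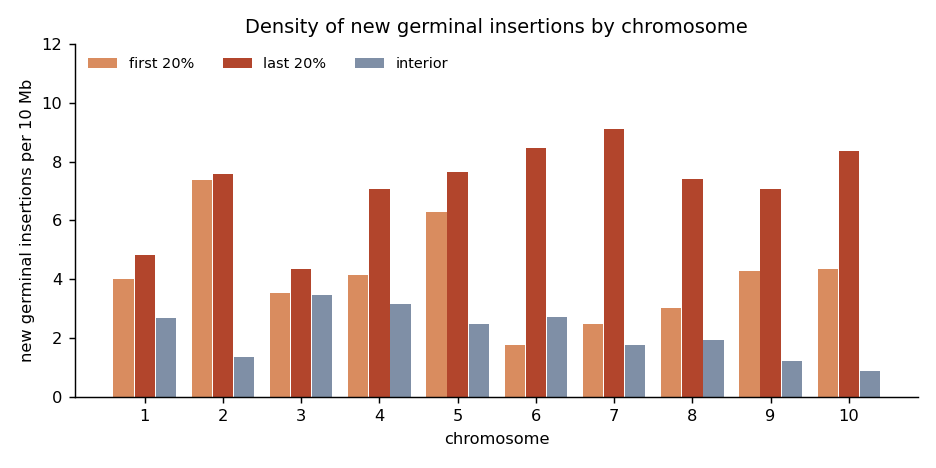
New germinal insertions per 10 Mb in the first 20%, the last 20% and the interior of each chromosome, summed over 30 plants. The last 20% reached 9.10 per 10 Mb on chromosome 7 against 1.75 in its interior, while on chromosome 3 the first 20% held 3.52 and the last 20% held 4.35.

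The number of near-end insertions per plant differed between the families (permutation of family labels, F = 15.5, adjusted p = 3.67e-05, from a p of 1e-05, the smallest the 100000 resamples can give). It averaged 24.6 ± 8.92 in NE72 (SD, n = 7), 20.4 ± 3.46 in NE74 (SD, n = 8), 11.5 ± 4.84 in NE71 (SD, n = 8) and 6.86 ± 3.24 in NE73 (SD, n = 7). NE74 plants ranged from 17 to 27 and did not overlap with NE73 plants, which ranged from 2 to 11. By exact two-sided permutation tests with adjustment over the 6 pairs, NE74 exceeded NE73 by 13.5 insertions (adjusted p = 0.000932), NE72 exceeded NE73 by 17.7 (adjusted p = 0.00175), NE74 exceeded NE71 by 8.88 (adjusted p = 0.00186) and NE72 exceeded NE71 by 13.1 (adjusted p = 0.00699). NE71 minus NE73, at 4.64 (adjusted p = 0.0705), and NE72 minus NE74, at 4.20 (adjusted p = 0.241), did not pass the exact test. Interior new insertions averaged 17.1 per plant in NE72, 12.1 in NE74, 6.00 in NE71 and 3.43 in NE73. The families thus stood in the same order in the interior, so this order was not particular to near-end insertions.

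Within NE72 the number was uneven between plants. Plants 2, 3 and 4 had 14, 17 and 15 near-end insertions, and the other 4 plants had 29, 34, 34 and 29. Plants 2, 3 and 4 also carried 18, 21 and 14 near-end insertions at the same levels that were shared with a sibling and low in all fathers, against 0 or 1 in the other 4 plants. Such shared insertions fall outside the rule, which asks for exactly 1 carrier. Whether they account for the lower numbers was not tested. Insertions shared between siblings averaged 0.625 in NE71, 0 in NE73 and 1 in NE74.

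The share near ends did not pass the test for a difference between families (permutation of family labels, F = 1.86, adjusted p = 0.195). It was 66.6% ± 8.54 in NE71 (n = 8), 58.7% ± 5.80 in NE72 (n = 7), 68.1% ± 7.86 in NE73 (n = 7) and 64.0% ± 9.39 in NE74 (n = 8), each ± SD. The families overlapped widely in this share, although they differed in the number.

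**Figure D3:**
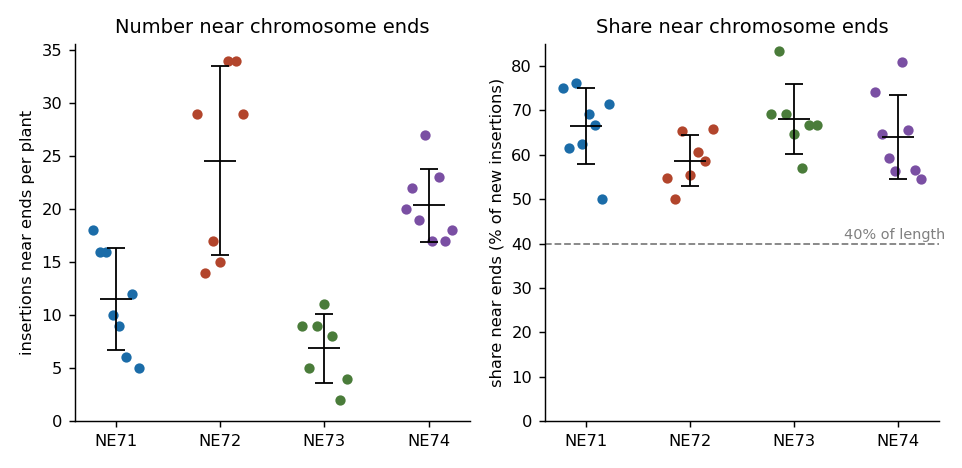
Number of new germinal insertions near chromosome ends per plant (left) and their share of the plant's new germinal insertions in percent (right), by family. Points are plants, bars are mean ± SD over 7 or 8 plants, and the dashed line is the 40% of chromosome length near ends. NE72 and NE74 lie above NE73 on the left, and all 30 plants lie above the line on the right.

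The levels of the near-end insertions were those that chose them and are given as a description. In leaf they ran from 1158 CPM through a median of 5549 CPM to 18833 CPM, and in endosperm from 1000.2 CPM through 5123 CPM to 14732 CPM. CPM is a share of the library total, which all insertions of a plant divide between them. The median leaf level was 4733 CPM in NE72 and 5486 CPM in NE74, against 8781 CPM in NE71 and 8228 CPM in NE73. Insertions at 1000 or more CPM in both tissues, new or not, numbered 96.7 per plant in NE72 and 82.9 in NE74, against 43.9 in NE71 and 48.3 in NE73.

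A yardstick within the library is the level of insertions inherited from the father. The plant's median near-end insertion differed from its median paternal insertion by -0.05 ± 0.16 in leaf and by -0.06 ± 0.24 in endosperm on the log2 scale (SD, n = 30). The widest gap was in endosperm of plant 9 of NE73, at -0.94, where the median rested on 4 near-end insertions, beside 38 paternal ones. Paternal insertions had passed the same minimum, and no test was made.

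Levels near ends and in the interior are set side by side as a description, since the rule used both level and position. In leaf, near-end insertions averaged 12.53 ± 0.42 and interior ones 12.63 ± 0.47 on the log2 CPM scale (SD, n = 30 plants). The difference of -0.10 ± 0.29 was negative in 19 plants and positive in 11. In endosperm the averages were 12.41 ± 0.43 near ends and 12.42 ± 0.45 in the interior, a difference of -0.01 ± 0.36. Both differences were smaller than their spread between plants, which does not by itself decide whether a mean difference exists.

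Levels in the 2 tissues of a plant ran together over the insertions. After subtracting each plant's mean, leaf and endosperm log2 CPM correlated over the 475 near-end insertions with a Pearson r of 0.67 and a Spearman rho of 0.56, and over the 289 interior ones with 0.72 and 0.58. The insertions of a plant share its libraries, so these are descriptions. Leaf and endosperm lay within 2-fold of each other for 453 of 475 near-end insertions, leaf was over 2-fold higher for 17 and endosperm for 5.

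The mean leaf minus endosperm level of near-end insertions was 0.12 ± 0.20 on the log2 scale, positive in 19 of 30 plants, and it turned to -0.14 when CPM was taken over chromosome rows 8 bp apart. Rows outside that set held 29.8% ± 8.80 of the total in leaf and 40.3% ± 8.63 of the total in endosperm (SD, n = 30). The direction of the tissue difference thus depended on the total used.

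The tissue difference was 0.12 ± 0.20 near ends and 0.20 ± 0.22 in the interior (SD, n = 30), a difference of -0.09 ± 0.21 that was negative in 22 plants and positive in 8. It was smaller than the SD between plants, which does not by itself decide whether a mean difference exists. A test of it was computed but is not quoted, because the rule used these levels.

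**Figure D4:**
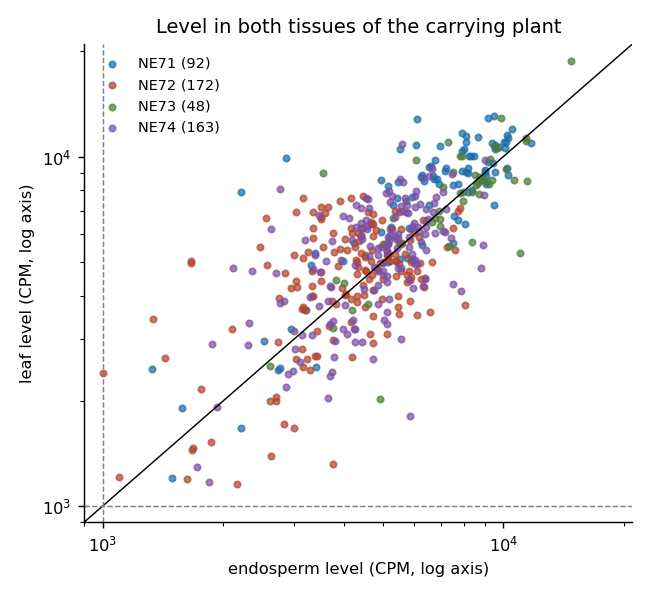
Level of each of the 475 near-end insertions in leaf and in endosperm of its carrying plant, in CPM on log axes, coloured by family. The solid line marks equal levels and the dashed lines the minimum of 1000 CPM. NE72 and NE74 points lie mostly lower than those of NE71 and NE73, and 453 of 475 points lie within 2-fold of the line.

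Single insertions show the range. Values below are counts of 1 library, with 95% Wilson intervals in CPM. With CPM taken over chromosome rows 8 bp apart, the levels of 20 named sites came out 1.21 to 1.76 times higher in leaf and 1.36 to 1.93 times higher in endosperm. The genome build and a matching annotation were not among the sources used here, so coordinates are as deposited and no gene, exon or strand is given. The highest near-end insertion, carried by plant 7 of NE73, spanned 878129 to 878137 on chromosome 5, 878.1 kb from the tip. It had 6374 of 338457 leaf counts, or 18833 CPM (18380 to 19296), and 134 of 9096 endosperm counts, or 14732 CPM (12453 to 17420). The highest in NE71 lay on chromosome 6 from 165088156 to 165088164 in plant 8, with 10944 CPM in leaf (10397 to 11519) and 11728 CPM in endosperm (9196 to 14948). The highest in NE74, on chromosome 7 from 170729070 to 170729078 in plant 8, had 9773 CPM in leaf (9517 to 10035) and 8995 CPM in endosperm (8206 to 9858). The highest in NE72, at 246217558 to 246217566 of chromosome 4 in plant 1, had 7139 CPM in leaf (6875 to 7412) and 7778 CPM in endosperm (6736 to 8980). Which tissue was higher depended on the total for the site of NE74, and the leaf to endosperm ratio of the NE73 site was 1.28 with the whole total and 1.04 with the chromosome rows 8 bp apart.

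The insertion nearest a tip lay on chromosome 7 from 181116487 to 181116495, 293.8 kb from the highest coordinate, in plant 5 of NE71. It was also the one with the largest excess in leaf, at 7911 CPM (7572 to 8265) in leaf and 2220.3 CPM (1782 to 2766) in endosperm, 3.56 times higher in leaf, or 3.11 times with the chromosome rows 8 bp apart. The nearest in NE74 lay 363.3 kb from the end of chromosome 10, from 148957840 to 148957848 in plant 5, with 6199 CPM (5904 to 6508) in leaf and 2636 CPM (1689 to 4114) in endosperm, where it rested on 19 counts. The nearest in NE72 lay 443.8 kb from the start of chromosome 3, from 443813 to 443821 in plant 1, and the nearest in NE73 lay 815.5 kb from the end of chromosome 4, from 253441114 to 253441122 in plant 4. Their levels were 5528 CPM in leaf (5296 to 5769) and 7228 CPM in endosperm (6226 to 8391), and 8369 CPM in leaf (7724 to 9068) and 9233 CPM in endosperm (8621 to 9888). The largest excess in endosperm was on chromosome 5 from 4915921 to 4915929 in plant 2 of NE74, at 1810.2 CPM (1683 to 1947) in leaf and 5866 CPM (5199 to 6618) in endosperm, 3.24 times higher in endosperm, or 3.705 times with the chromosome rows 8 bp apart.

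At the limits of the rule, the lowest near-end insertions had 1000.2 CPM in endosperm (6 of 5999 counts, chromosome 6 from 5817367 to 5817375, plant 8 of NE72) and 1099 CPM in endosperm (chromosome 4 from 204766643 to 204766651, plant 1 of NE72). Just outside were sites with 998.5 CPM in leaf at 5204345 to 5204353 of chromosome 3 (plant 8 of NE72), and with 883.4 CPM in leaf at 250673708 to 250673716 of chromosome 4 (plant 7 of NE73). The latter lies directly beside a group of rows of the same plant that starts at 250673710 and is described below, so it may not be a separate insertion. By position the last insertions inside lay at 19.9% of chromosome 4 (50687968 to 50687976) and 80.1% of chromosome 9 (130659550 to 130659558). The first outside lay at 79.97% of chromosome 10 (119418624 to 119418632) and 79.9% of chromosome 1 (248280320 to 248280328).

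Spacing was measured from start to start. The nearest other near-end insertion of any plant lay at a median of 466.1 kb, with quartiles of 197 kb and 1071 kb, and 346 of 475 had one within 1 Mb. Interior insertions had a median of 1067 kb and 139 of 289 within 1 Mb. Within the same plant the nearest near-end insertion on the chromosome lay at a median of 12.1 Mb over the 393 insertions that had one, so neighbours were mostly insertions of other plants. A 1 Mb stretch of chromosome 4 between 249921933 and 250820264 held 7 rows from 5 plants of 3 families, the most of any, but 3 of them are a group of 1 plant described next. With such groups counted once it held 5, and the most, 6, lay on chromosome 2 between 1746938 and 2563268 (6 plants) and on chromosome 10 between 144003913 and 144847193 (5 plants).

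The closest pairs were rows of the same plant. On chromosome 5 in plant 1 of NE71, rows started at 5194340, 5194341 and 5194342, with 2446, 8279 and 2490.3 CPM in leaf and 2736, 7469 and 2772 CPM in endosperm. On chromosome 4 in plant 7 of NE73, rows started at 250673710, 250673712 and 250673714, with 7803, 8497 and 5306 CPM in leaf and 8685, 11434 and 10994 CPM in endosperm. Rows of 1 plant within 10 bp of each other formed 3 such groups with 8 rows in all, the remaining one on chromosome 5 at 2246928 and 2246932 in plant 5 of NE71. Whether the rows of a group are separate insertions or 1 insertion placed at several coordinates was not tested. Counting each group once leaves 470 near-end insertions.

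Near-coincident insertions also occurred in different plants. Of 19 pairs within 1 kb, 8 were of the same plant, 4 of siblings and 7 of different families. The same-plant pairs all came from the row groups above, except a pair 970 bp apart on chromosome 2 in plant 6 of NE74. Of 27 pairs within 10 kb, 12 were of different families. The closest such pair, chosen after its values were seen, started 10 bp apart on chromosome 10, at 144799966 in plant 8 of NE72 and at 144799976 in plant 4 of NE74.

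The surroundings of the insertions were compared by the number of other rows within 1 kb that had no count in either library of the carrying plant. The rule did not use this number, but its position limit divides the groups compared. Near-end insertions had 40.7 ± 9.53 such sites and interior ones 33.7 ± 12.6 (SD, n = 30 plants). The difference of 7.04 ± 16.4 was positive in 18 plants and negative in 12 (sign-flip permutation, adjusted p = 0.0446). Rows in general were also denser near ends, as given below, so the test cannot tell whether the difference is particular to new insertions. The call was lost in 10 of 19 alternative settings, with adjusted p from 2.75e-05 to 0.204. Without the 1 insertion that had the most neighbours the difference was 6.37 (sign-flip permutation, adjusted p = 0.0504).

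For orientation and with no test, a window of that size held on average 1.54 rows near ends and 0.69 in the interior, or 1.03 over the chromosomes as a whole. At least 10 other sites surrounded 430 of 475 near-end insertions and 240 of 289 interior ones. The insertion with the most, 409, spanned 179491704 to 179491712 of chromosome 5 in plant 8 of NE74, with 2389 CPM in leaf (2264 to 2521) and 2905 CPM in endosperm (2471 to 3415). The next highest, 146, belonged to the insertion 363.3 kb from the end of chromosome 10 named above. No other site lay within 1 kb of 5 near-end and 14 interior insertions.

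**Figure D5:**
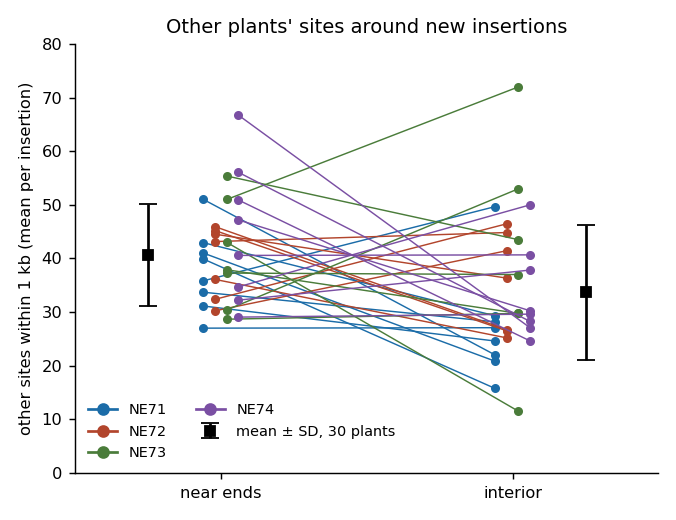
Mean number of other rows within 1 kb of a plant's new germinal insertions, near ends (left) and interior (right), counting only rows without counts in that plant. Lines join the values of 1 plant, coloured by family, and squares are mean ± SD over 30 plants. The means are 40.7 near ends and 33.7 in the interior, with 12 of 30 plants falling the other way.

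The sites were also looked up in the other libraries. At 213 of 475 near-end sites no library of another plant had a count, within the floors given above, and the highest level in another plant had a median of 2.86 CPM. A level of 100 CPM or more in another plant occurred at 11 sites. The highest, 366.5 CPM, came from 2 of 5457 counts in endosperm of plant 8 of NE71, at the insertion of plant 7 of NE71 on chromosome 10 from 9121071 to 9121079, which had 8822 CPM (8379 to 9288) in leaf and 6694 CPM (5880.2 to 7620) in endosperm of plant 7. Counts were found in 6.10% of the sibling libraries examined and in 4.09% of the libraries of other families.

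The own father's library had 1 or more counts at 51 of 475 sites, or 10.7%, and none above 7 counts, while the libraries of the other fathers had counts in 5.61% of cases. Per father, counts stood at 11.6% of the near-end sites of its own progeny and 10.2% of those of other families for NE72, 14.1% and 8.65% for NE74, 6.52% and 4.18% for NE71, and 4.17% and 1.41% for NE73. The rule limits these counts to under 10, so they are given with no test. In the authors' deposited table of transmitted insertions, 475 of the 475 near-end insertions and 289 of the 289 interior ones were listed, each called in the carrying plant only and in no parent.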

How the data were processed

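The authors deposited raw counts for 1091553 insertion sites in 64 libraries. Per the labels' protocols, sheared DNA (mean 1000 bp) was ligated to an adapter and the sequence flanking Mu ends was amplified. Bowtie2 is named in the submitters' processing notes. Its version, the counting program, the genome build and any removal of duplicates are not given in the sources used here. The authors' deposited table of transmitted insertions holds calls of 0 or 1, whose criteria are not given in the sources used here. All columns matched a label, and 0 were left unused.

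CPM used each library's total over all rows. The plant was the unit, with two-sided sign-flip permutation (100000 resamples), permutation of family labels, and exact permutation for family pairs (Python 3.11.15, numpy 2.4.6, scipy 1.17.1). Leaf and endosperm were paired because the series text says they are of the same kernel. Deviations of their mean near-end level from the family mean correlated over 30 plants, with a Pearson r of 0.77 and a Spearman rho of 0.70. Without the 2 plants farthest from the median, r was 0.67. The rule set a minimum in both tissues of the same plant, so these values are a description and no check of the pairing. Alternatives were other level, father and position limits, another CPM total, merged rows, families or a plant left out, and no replicate block. Tests on position or level alone were computed, but their p-values are not given because the rule used those values.

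The insertions, tests and alternatives were chosen with earlier results of these data known. Named are the sites with the highest level and nearest a tip in each family, the closest pairs, the most neighbours, the largest tissue ratios, those at the limits of the rule and the highest level in another plant. On a simulated table with 200 planted insertions among 214712 sites, the choice recovered 95.5% of those at the lower simulated level and 98.9% at the higher one, with 0 false ones. Each simulated background site had the same expected share in all libraries, fathers included, so the 0 was nearly set in advance. PCR copies and carry-over between libraries were not simulated, so the 0 does not measure false insertions in the data.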

Additional observations from a re-analysis of the deposited data

Results flagged for a closer look

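On the chromosomes, 62 rows had coordinates that were not 8 bp apart, and the report did not use them. Of these, 16 met the same level rule, with 1000 or more CPM in both tissues of exactly 1 plant and under 10 counts in each father library. They were carried by 10 plants, 11 of the 16 lay near chromosome ends, and their coordinates were 0 to 16 bp apart. Their levels ran from 1706 to 9894 CPM in leaf and from 2237 to 7962 CPM in endosperm. The 475 rows on scaffolds held 0 that met the rule.

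A search for plants far from the rest of their family ran over 24 sets of 7 or 8 values, covering the number, share, levels, tissue difference and neighbours of near-end insertions. It found 0 such plants, where chance gives about 1.2.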

How the results depend on the processing

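Of 177 recomputed values of 12 results, 144 kept their direction and their side of the threshold, or for the number of insertions stayed within 1.5 times. With CPM over chromosome rows 8 bp apart, 38 of 40 levels at named sites moved by more than their interval. The number was 314 with the outer 10% at each end, 303 without NE72 and 312 without NE74. For levels, which the rule used, values stand without tests. The leaf level difference, near ends minus interior, was -0.13 at a minimum of 500 CPM and -0.13 with CPM over chromosome rows 8 bp apart. The endosperm difference changed sign at 2000 CPM (0.000275), with 0 father counts (0.013), without NE71 (0.0399) and with medians (0.049). Leaf minus endosperm turned to -0.14 with CPM over chromosome rows 8 bp apart, and was 0.061 without NE71 and 0.12 with no replicate block. Its difference from the interior took other values at 500 CPM (-0.094), at 2000 CPM (-0.077), with 0 father counts (-0.094), with the outer 30% (-0.074), without rows within 10 bp of a higher row (-0.075), with CPM over chromosome rows 8 bp apart (-0.096), without NE72 (-0.094), NE73 (-0.049) or NE74 (-0.076), and was the same -0.087 with no replicate block. The difference in other sites within 1 kb did not pass with 0 father counts (6.37), the outer 10% (4.63) or 30% (5.52), without rows within 10 bp of a higher row (2.13), without NE71 (5.74), NE72 (7.88) or NE74 (5.56), or in a window of 100 bp (1.28). Among alternatives chosen after seeing the data, it did not pass with the median over insertions (4.5) or without the insertion with the most neighbours (6.37). The new germinal share exceeded the leaf-only share by 3.77 percentage points, and passed, at a leaf-only minimum of 3 counts. For these changes the cause was not tested. Without the replicate block, no call given in the report changed. Endosperm depth limits single levels, with as few as 6 counts behind an insertion.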
